A study of Mus musculus with 242 samples.

Results

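Cholesterol synthesis and SREBP2 genes were read as a group of 28 genes: the enzymes that build cholesterol from acetyl-CoA, the proteins that control them through the transcription factor SREBP2, and carriers that move sterols into and out of the hepatocyte. The members were chosen by name, and where a gene has several probe sets the brightest on average stands for it. One probe set or more naming a single gene was found for 27 of the 28 genes, out of 18193 genes in the whole series, and Acat2 is not analysed here. The labels call the tissue liver, and the summed signal of 6 hepatocyte marker genes was the highest of the cell type lists in all groups.

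Cholesterol is made in the liver through the mevalonate pathway: acetyl-CoA is joined to HMG-CoA, reduced to mevalonate, phosphorylated, and turned into the isoprenoid units that are condensed to squalene. Squalene is oxidised and closed to lanosterol, and a chain of demethylation, reduction and isomerisation steps then gives cholesterol. When membranes of the endoplasmic reticulum are poor in sterol, SCAP carries SREBP2 to the Golgi, where it is cut, and its free part enters the nucleus and switches on nearly every enzyme of the pathway. When sterol is plentiful, the INSIG proteins hold SCAP back. The Insig1 gene is itself an SREBP target, and liver also makes much INSIG2, whose transcript falls with insulin in mouse liver. Oxysterols act through LXR (Nr1h3 encodes LXR alpha), which raises Abcg5 and Abcg8, the pair that sends sterol into bile.

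The samples were livers of female B6C3F1 mice, the cross of C57BL/6 and C3H strains used in cancer bioassays, 5 weeks old at the start and given 1 of 26 chemicals, or vehicle alone, during 13 weeks. Feed groups and chow controls are labelled 7 days a week, and gavage and inhalation groups 5. Corn oil or water against chow therefore differs in schedule as well as in vehicle and route. There were 242 arrays in 46 treated groups and 14 control sets of 3 to 5 mice, and the right, caudate and median lobes were minced together, so the mix of cell types in a sample is not known. In such bulk tissue fewer cells of a type and less RNA per cell cannot be told apart. In run A (54 arrays) the groups were malathion 14800 ppm, diazinon 200 ppm, 4-nitroanthranilic acid 10000 ppm and 2,2-bis(bromomethyl)-1,3-propanediol 1250 ppm in feed, with benzene 100 mg/kg, coumarin 200 mg/kg and 1,2-dibromoethane 62 mg/kg by gavage in corn oil. N-methylolacrylamide 50 mg/kg and 2-chloromethylpyridine hydrochloride 250 mg/kg were given by gavage in water. Run B (36 arrays) held tris(2,3-dibromopropyl)phosphate 1000 ppm and 1-amino-2,4-dibromoanthraquinone 20000 ppm in feed, iodoform 93 mg/kg and trichlorofluoromethane 3925 mg/kg in corn oil, and inhaled tetrafluoroethylene 1250 ppm and tetrafluororethane 50000 ppm. Run C (18 arrays) held 1,5-naphthalenediamine 2000 ppm, N-(1-naphthyl)ethylenediamine dihydrochloride 2000 ppm and pentachloronitrobenzene 8187 ppm in feed, and 2,3-benzofuran 240 mg/kg in corn oil. In run D (134 arrays) inhaled vanadium pentoxide 2 mg/m3 and ethylene oxide 100 ppm stood beside 5 dose series. Methylene chloride was inhaled at 100, 500, 2000, 3000 and 4000 ppm, propylene glycol mono-t-butyl ether at 25, 75, 300, 800 and 1200 ppm, and naphthalene at 0.5, 3, 10, 20 and 30 ppm. By gavage in corn oil, 1,2,3-trichloropropane was given at 2, 6, 20, 40 and 60 mg/kg, and 1,4-dichlorobenzene at 100, 300, 400, 500 and 600 mg/kg. Controls were fed rodent chow, given corn oil or distilled water by gavage, or kept in air, and each treated group is compared with a control set of its own run and vehicle; which set belongs to which chemical was taken from neighbouring animal numbers, not from a statement in the labels. Doses here are those of the dose labels: the malathion titles carry 16000 instead of 14800, and all run C titles carry 2000, also for pentachloronitrobenzene, 2,3-benzofuran and the controls, so the doses of these 3 chemicals are uncertain to that extent. Set CCO3 of run A is labelled distilled water, but its code is that of the corn oil sets, so it was kept apart.

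To show what the pathway's promoters look like, 4 are printed here because their genes recur in the results below: the genes of HMG-CoA synthase (Hmgcs1), of the isoprenoid isomerase (Idi1) and of both early lanosterol demethylation enzymes (Cyp51, Msmo1). Each run is the 250 bases before the annotated start in RefSeq's table for build GRCm38.p6, 5′ to 3′ on the gene's strand. Capitals mark CCAAT, read as ATTGG on the other strand, and TCACNCCAC, a form of the sterol regulatory element, each searched on both strands. CCAAT is the box bound by NF-Y, a factor known to work beside SREBP.
Hmgcs1 (chr13:119690101-119690350, + strand): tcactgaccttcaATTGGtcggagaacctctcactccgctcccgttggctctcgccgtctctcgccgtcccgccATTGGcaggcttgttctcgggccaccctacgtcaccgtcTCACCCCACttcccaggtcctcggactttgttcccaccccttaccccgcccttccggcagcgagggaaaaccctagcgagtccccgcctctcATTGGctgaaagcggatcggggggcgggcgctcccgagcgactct
Idi1 (chr13:8885356-8885605, + strand): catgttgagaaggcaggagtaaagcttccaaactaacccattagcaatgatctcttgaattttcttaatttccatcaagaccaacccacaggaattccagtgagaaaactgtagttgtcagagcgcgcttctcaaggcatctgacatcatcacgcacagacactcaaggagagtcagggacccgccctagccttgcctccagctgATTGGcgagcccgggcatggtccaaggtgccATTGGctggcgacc
Cyp51 (chr5:4104698-4104947, - strand): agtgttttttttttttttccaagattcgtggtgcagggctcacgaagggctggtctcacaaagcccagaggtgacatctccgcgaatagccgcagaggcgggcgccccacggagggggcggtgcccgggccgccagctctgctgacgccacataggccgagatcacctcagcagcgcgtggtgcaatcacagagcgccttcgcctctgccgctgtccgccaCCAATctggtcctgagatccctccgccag
Msmo1 (chr8:64733579-64733828, - strand): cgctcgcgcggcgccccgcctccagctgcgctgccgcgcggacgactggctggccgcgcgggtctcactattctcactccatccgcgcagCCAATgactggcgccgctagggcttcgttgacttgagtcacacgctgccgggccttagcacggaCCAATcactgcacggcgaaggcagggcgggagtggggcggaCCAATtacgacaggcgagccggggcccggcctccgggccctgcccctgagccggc
The Hmgcs1 window held 3 CCAAT boxes and 1 TCACNCCAC, whose letters TCACCCCAC lie 137 to 129 bases before the start. Msmo1 held 3 CCAAT boxes, Idi1 held 2 and Cyp51 held 1, and none of these 3 windows held TCACNCCAC. Over the first listed promoter of 27025 genes, 34.5% held CCAAT and 1.04% held TCACNCCAC. Of the 24 members in the table, 19 held CCAAT (79.2%) and only Hmgcs1 held TCACNCCAC. A match is a description of letters and not a binding site. Sqle, Fdps, Fdft1 and Stard4 have no entry in the table used.

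The heat map of all members shows how the treated groups stood to their controls. Values throughout are log2(signal + 17.3), where the signal is the scanner software's intensity on a common scale and 17.3 is the pseudocount. A gene is said to have risen or fallen where limma's adjusted p (Benjamini-Hochberg over all 18193 genes) was under 0.05 and the fold was at least 1.5. By that rule 13 of the 46 treated groups, from 9 of the 26 chemicals, held a changed member, with 39 rises of 14 genes and 5 falls of 3 genes. In the other 33 groups no member passed with limma, at most 10 of the 27 had an unadjusted p under 0.05, and between 0% and 0.803% of all genes changed. The calls outside malathion rest on the spread estimated over all groups of a run: with each treated group fitted beside its own controls alone, 1 group held changed members, malathion with 6. With 2 arrays that lay off the common scale left as deposited, 7 groups held 21 calls. Those 2 arrays then stay on another scale than the rest, so this count does not measure how firm the calls are.

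**Figure D1:**
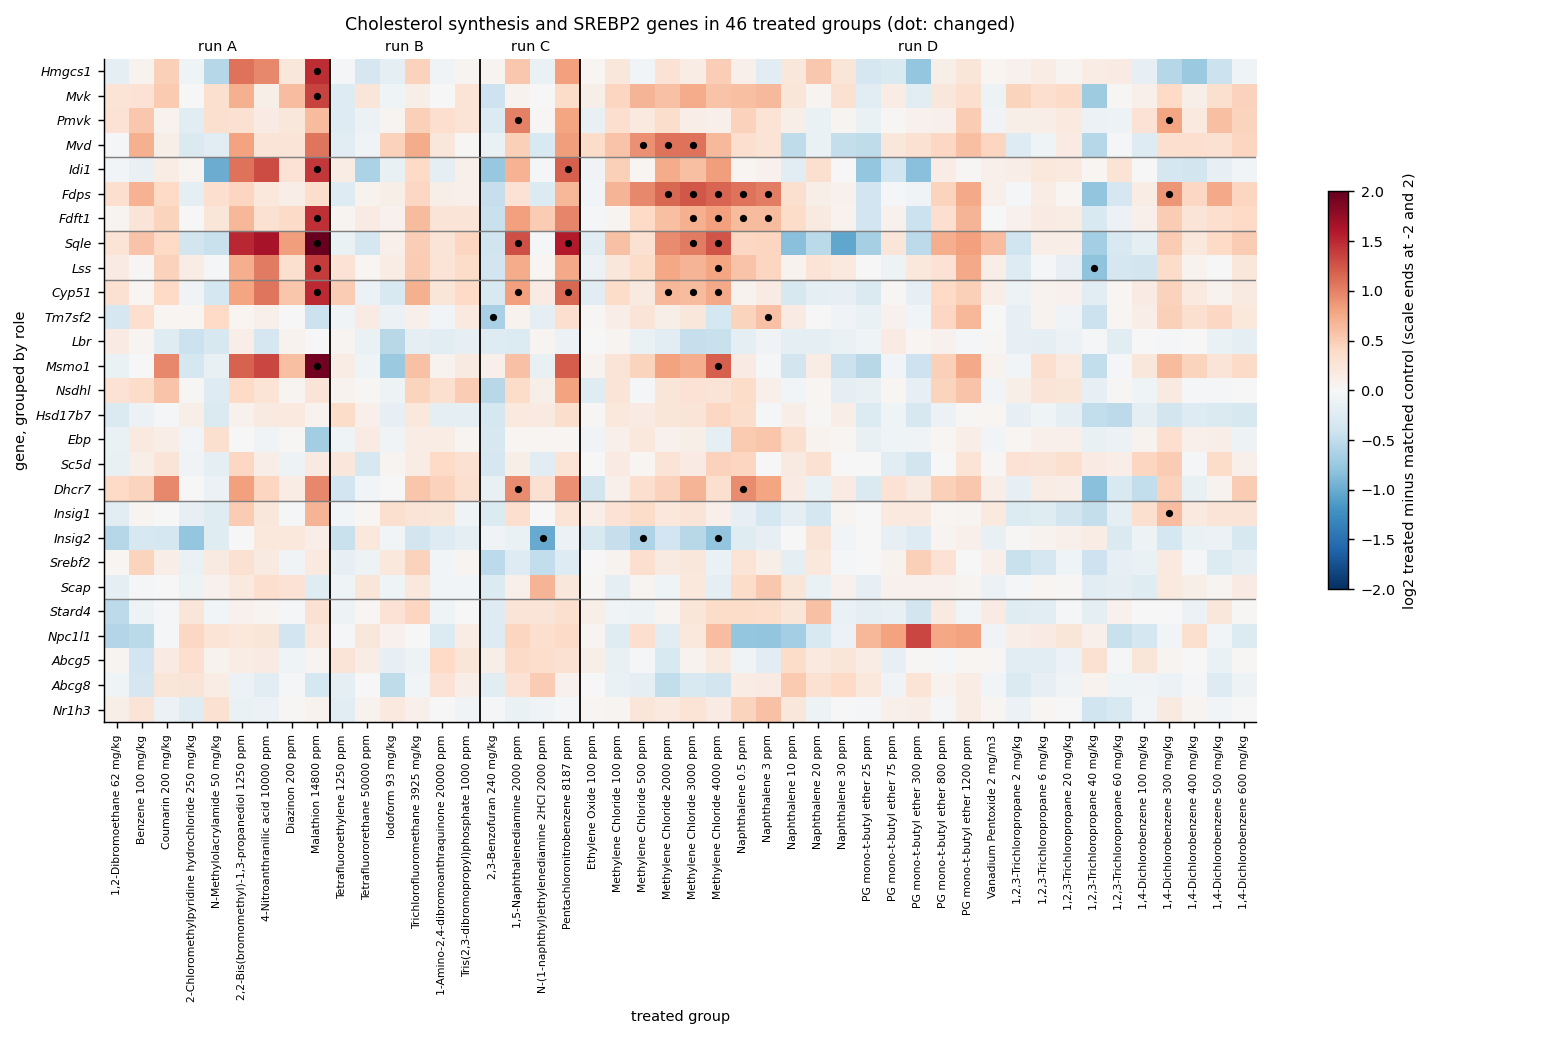
Heat map of the log2 difference from matched controls for the 27 measured genes (rows, grouped by role from the mevalonate steps at the top to sterol carriers at the bottom) in 46 treated groups (columns, by run); red is higher, blue lower, and dots mark genes that passed the rule. Dots lie mostly on enzymes between Mvd and Msmo1, in malathion, run C feed groups, methylene chloride and the lowest naphthalene doses.

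Among control mice, those given corn oil by gavage in run D had higher transcript levels of 10 members than mice kept in air, and no member was lower. The 10 genes span the pathway from Hmgcs1, which makes HMG-CoA, and Mvd, which makes isopentenyl diphosphate, to Dhcr7, the last reductase. They compare with 0.693% of all genes higher in this contrast, and the median difference over the 27 members was 0.36, against 0.04 over all genes. Vehicle and route differ together here, so oil and gavage cannot be told apart from the air chamber. RNA integrity numbers, where labelled, were 7.6 to 7.9 in corn oil set CCO5 and 8.6 to 8.8 in CCO6. In air sets ACO3, ACO4 and ACO5 they were 8.7 to 8.8, 8.9 to 9.1 and 8.5 to 8.9, so CCO5 lay below all air mice. The part of these numbers in the result was not tested.

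Sqle, squalene epoxidase and a rate-limiting step after HMG-CoA reduction, had the largest of the 10 differences. Over the 10 corn oil mice of sets CCO5 and CCO6 Sqle ran from 9.77 through a median of 10.67 to 11.73, and over the 15 air mice of ACO3, ACO4 and ACO5 from 8.08 through 8.79 to 10.09. Only 1 air mouse, in ACO3, reached the range of the corn oil mice. Its difference was 1.88 ± 0.20 (SE), 3.69-fold, with limma's adjusted p = 1.93e-11. For Cyp51, lanosterol 14-demethylase, the corn oil mice ran from 10.45 through 11.07 to 11.53 and the air mice from 9.55 through 10.10 to 10.74. The ranges overlapped at their ends, and the difference was 0.93 ± 0.11 (adjusted p = 2.87e-09, limma). Hmgcs1 ran from 12.15 through 13.23 to 13.69 with corn oil and from 10.83 through 11.91 to 12.57 in air, a difference of 1.20 ± 0.20 (adjusted p = 3.49e-05). Msmo1, the sterol C4-methyl oxidase, ran from 11.35 through 12.15 to 12.95 against 10.24 through 11.25 to 11.74 (difference 0.97 ± 0.16, adjusted p = 7.6e-06). In both of these genes the lowest corn oil mice lay inside the range of the air mice.

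The other 6 genes that rose with corn oil overlapped more: 7 to 12 of the 15 air mice reached the lowest corn oil mouse. Fdft1, squalene synthase, ran from 11.77 through 12.42 to 13.21 with corn oil and from 11.25 through 11.87 to 12.35 in air (difference 0.61 ± 0.11, adjusted p = 9.92e-05). Lss, which closes the ring to lanosterol, ran from 9.61 through 10.43 to 10.89 against 9.18 through 9.74 to 9.96 (difference 0.71 ± 0.14, adjusted p = 0.00032). Fdps, the farnesyl diphosphate synthase, ran from 12.11 through 13.24 to 14.15 against 11.48 through 12.63 to 13.03 (difference 0.76 ± 0.17, adjusted p = 0.00217). The lowest Fdps value with corn oil was 1 mouse of CCO5 that stood apart from its set. Dhcr7 ran from 11.19 through 12.24 to 12.60 against 10.45 through 11.24 to 12.23 (difference 0.73 ± 0.17, adjusted p = 0.00529). Idi1, which interconverts the isoprenoid units, ran from 10.28 through 11.54 to 12.21 against 8.83 through 10.58 to 11.20 (difference 0.97 ± 0.24, adjusted p = 0.00895). Mvd ran from 8.63 through 9.25 to 9.65 against 7.73 through 8.57 to 9.14 (difference 0.61 ± 0.15, adjusted p = 0.0131). Medians were higher with corn oil for each of these genes, while single mice of both vehicles shared the middle of the scale. Taken set by set, Sqle was higher in each of the 6 pairs of a corn oil and an air set, by 1.34 to 2.31, and the number of members higher ran from 1 (CCO5 against ACO3) to 10 (CCO6 against ACO4). Of all 18193 genes, 8 were higher in the first of these 2 pairs and 117 in the second. Leaving out any 1 of the 25 arrays left 8 to 11 members changed.

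**Figure D2:**
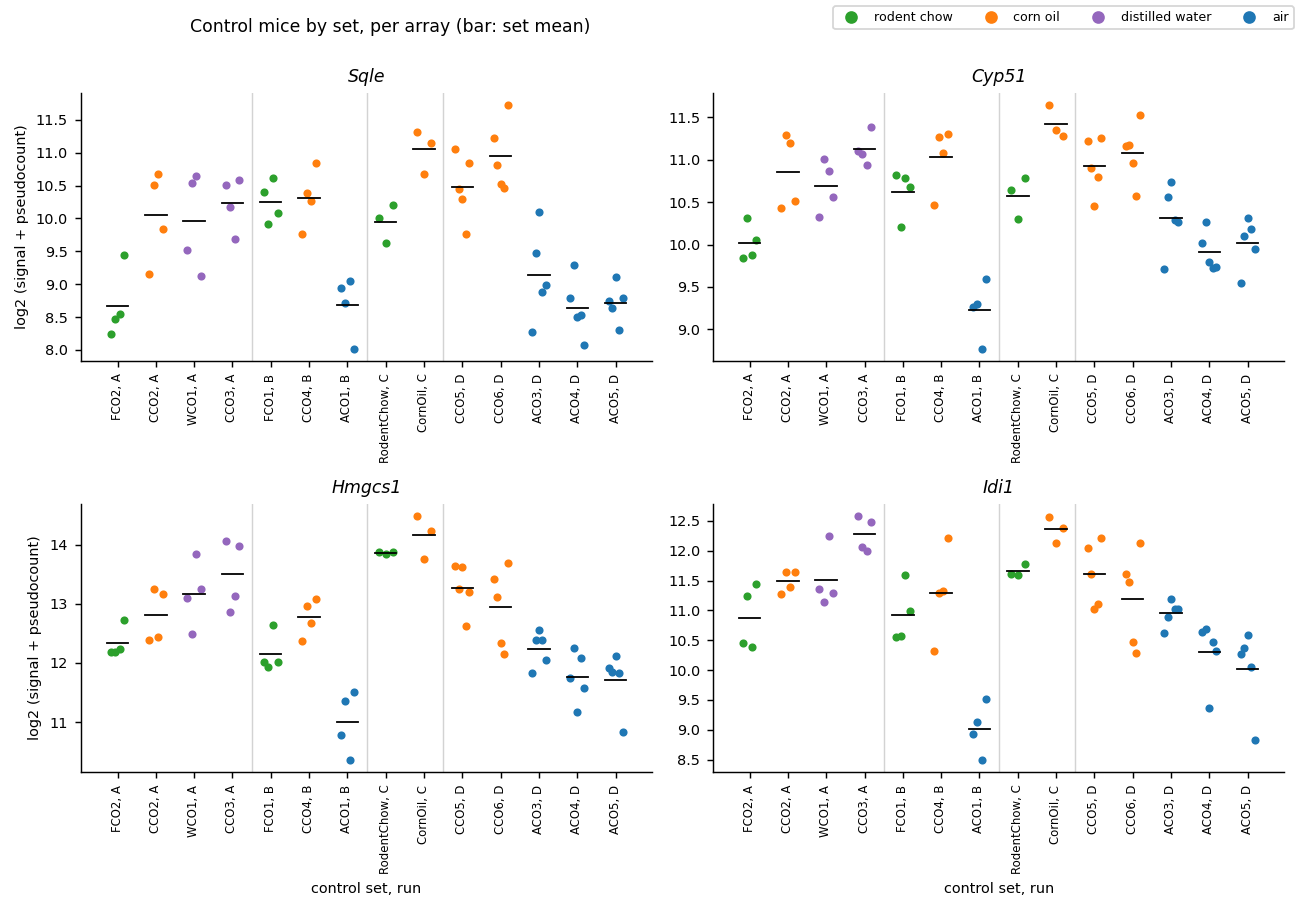
Log2 signal of Sqle, Cyp51, Hmgcs1 and Idi1 on each control array (points) with the mean of the set (bar), by control set and run; colours give the vehicle. Air sets are the lowest of runs B and D for all 4 genes, and chow set FCO2 is the lowest of run A.

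In run B the corn oil mice of CCO4 also differed from the air mice of ACO1: 9 members were higher and 4 lower, where 15.8% of all genes were higher and 12.8% lower. With so many genes changed, the members' shares of 9 and 4 in 27 are to be read against those backgrounds. The 4 lower in 27 lie close to the share of all genes. Idi1 was 10.32, 11.29, 11.33 and 12.22 in the corn oil mice and 8.93, 9.13, 8.50 and 9.51 in the air mice (difference 2.27 ± 0.47, adjusted p = 0.000714, limma). Msmo1 was 11.70, 12.65, 12.10 and 12.43 against 10.20, 9.96, 9.41 and 10.82 (difference 2.12 ± 0.44, adjusted p = 0.000761). Neither gene's groups overlapped. Cyp51 was 10.46, 11.27, 11.08 and 11.31 against 9.27, 9.30, 8.77 and 9.59 (difference 1.80 ± 0.29, adjusted p = 0.000206). Hmgcs1 was 12.37, 12.97, 12.67 and 13.09 against 10.77, 11.36, 10.36 and 11.51 (difference 1.77 ± 0.32, adjusted p = 0.00033). Sqle was 9.76, 10.39, 10.27 and 10.84 against 8.94, 8.71, 9.05 and 8.02 (difference 1.63 ± 0.39, adjusted p = 0.00196). The groups were apart in these 3 genes as well.

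Enzymes of later steps were higher with corn oil in run B too. Sc5d, the sterol C5 desaturase, was 13.89, 14.22, 14.16 and 13.72 with corn oil and 12.37, 11.84, 11.39 and 13.58 in air (difference 1.70 ± 0.34, adjusted p = 0.000541, limma). Lbr, a C14 sterol reductase that is also a nuclear envelope protein, was 10.30, 10.29, 10.20 and 10.18 against 9.09, 8.87, 9.30 and 9.71 (difference 1.00 ± 0.18, adjusted p = 0.000273). Hsd17b7, a 3-ketosteroid reductase, was 10.14, 10.32, 10.56 and 11.29 against 9.46, 9.58, 9.60 and 9.86 (difference 0.95 ± 0.21, adjusted p = 0.00138). Groups did not overlap in these 3 genes either. Nsdhl, a C4-demethylation enzyme, differed by 1.18 ± 0.31 (adjusted p = 0.00389). Lower with corn oil were Nr1h3 (-0.91 ± 0.21, adjusted p = 0.00167) and Scap (-0.95 ± 0.23, adjusted p = 0.00213). The arrays of Nr1h3 read 11.19, 11.21, 11.07 and 11.08 with corn oil and 12.16, 12.45, 12.23 and 11.36 in air, and those of Scap 12.67, 12.46, 12.27 and 12.33 and 13.50, 13.81, 13.77 and 12.44. In Scap, Srebf2 and Tm7sf2 the fourth air mouse lay among the corn oil mice and the other 3 lay above them. Srebf2 itself differed by -1.05 ± 0.28 (adjusted p = 0.00449) and Tm7sf2, the other C14 reductase, by -0.73 ± 0.24 (adjusted p = 0.0192). A second, dimmer probe set of Scap read 0.39 higher. The second probe set of Srebf2 differed by only -0.25 ± 0.26 (unadjusted p = 0.355, limma). Its mean log2 over all arrays was 8.97, beside 9.40 for the one used. The Gapdh 3′ to 5′ signal ratio, a measure of RNA integrity read from control probe sets, was apart between the 2 sets of mice (log2 -0.64 to -0.62 with corn oil, -0.54 to -0.40 in air). With that ratio as a covariate 1 member was changed. Markers of other cell types moved as well: the summed signal of 6 stellate and fibroblast markers was 9661 to 10226 with corn oil and 5429 to 9618 in air, with Dcn, Reln and Lrat higher and Col1a1 lower, while the sums of the other 7 lists overlapped. Single markers that changed in those lists were Pecam1 of endothelium, Vsig4 of macrophages and Fgb of hepatocytes, which were higher, and Krt19 of bile duct, which was lower. The part of these markers in the result was not tested.

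Corn oil against chow changed no member in runs A, B and C, where limma called 0 of all genes. An unadjusted p under 0.05 was found for 8, 1 and 12 of the 27 members, and for 1293, 1701 and 1214 of all 18193 genes. The median over the members was 0.40 in run A, -0.02 in run B and 0.48 in run C, against 0.02, 0.06 and -0.03 over all genes. Sqle differed by 1.44 ± 0.46 in run A, 0.06 ± 0.39 in run B and 1.10 ± 0.26 in run C (adjusted p = 0.456, 0.967 and 0.357, limma). Sets of the same vehicle differed in no member (limma, with 1 to 4 members and 893 to 2257 of all genes at an unadjusted p under 0.05 in each pair). Between distilled water and chow in run A no member passed, and 7 members had an unadjusted p under 0.05, as did 1149 of all genes.

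Malathion, an organophosphate insecticide, gave the largest rises of the treated groups: 8 of the 27 members were higher than in the chow-fed controls of set FCO2 and none was lower, where 2.36% of all genes were higher. The 8 were Hmgcs1 and Mvk of the mevalonate steps, Idi1 and Fdft1 of the isoprenoid steps, Sqle and Lss of the way to lanosterol, and Cyp51 and Msmo1 after it. Sqle read 8.24, 8.47, 8.55 and 9.44 on the 4 control arrays and 12.32, 11.12, 11.05, 11.29 and 10.10 on the 5 malathion arrays. The groups did not overlap, and with the run code as a block, which shifts it slightly from the difference of the means, it was 2.60 ± 0.44 (6.06-fold, adjusted p = 8.24e-05, limma). Cyp51 read 9.84, 10.32, 9.88 and 10.06 in controls and 12.47, 11.33, 11.46, 11.23 and 11.06 with malathion (difference 1.49 ± 0.25, adjusted p = 6.48e-05). For Mvk, mevalonate kinase, the arrays read 8.21, 7.89, 8.74 and 8.35 and 10.22, 9.25, 9.78, 9.57 and 8.96 (difference 1.35 ± 0.30, adjusted p = 0.00265). Lss read 9.31, 9.13, 9.25 and 9.41 and 11.78, 10.47, 10.42, 10.20 and 9.43 (difference 1.39 ± 0.31, adjusted p = 0.00265). In all 3 genes each malathion array lay above each control array, in Lss by a margin that was small for the lowest malathion mouse.

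Msmo1 read 9.77, 10.29, 10.01 and 11.57 in controls and 13.60, 12.21, 11.91, 11.81 and 11.68 with malathion (difference 1.93 ± 0.44, adjusted p = 0.00405, limma). Fdft1 read 11.05, 11.46, 11.44 and 12.05 and 13.90, 12.70, 12.70, 12.41 and 12.32 (difference 1.46 ± 0.34, adjusted p = 0.00575). Idi1 read 10.45, 11.24, 10.38 and 11.44 and 13.56, 11.96, 11.77, 11.88 and 11.58 (difference 1.41 ± 0.37, adjusted p = 0.0167). The first malathion mouse was the highest in all 8 genes, and the fourth control mouse was the highest control in Sqle, Lss, Msmo1, Fdft1, Idi1 and Hmgcs1. Hmgcs1 read 12.19, 12.18, 12.23 and 12.72 and 15.02, 13.57, 12.94, 13.24 and 13.39 (difference 1.47 ± 0.42, adjusted p = 0.0308). Leaving out the first malathion mouse, or FCO2 replicate 1 or 3, left 6 members changed, the lowest count over the 9 arrays. Of the members that did not pass, Dhcr7 stood at 0.96 ± 0.38 and Mvd at 1.07 ± 0.43, and Ebp, the sterol isomerase, at -0.69 ± 0.23. RNA integrity numbers were 4.7 to 6.5 with malathion and 6.7 to 7.2 in its controls. Without the 2 malathion arrays under 5, 7 members were changed.

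The result rests on the chow set. Of its 4 mice, 3 were the lowest control mice of run A in Sqle and the fourth lay within the range of sets CCO2 and WCO1. The mean was lower than in the other sets, at 8.67 ± 0.53 (SD, n = 4), beside 10.05 ± 0.70 for corn oil set CCO2, 9.95 ± 0.75 for water set WCO1 and 10.24 ± 0.41 for set CCO3 (n = 4 each). Against CCO2, WCO1 and CCO3 in turn malathion raised 0 members by limma's rule and lowered 1 (Ebp, against CCO2 alone), though 232, 240 and 448 genes of the whole table were higher, and Sqle differed by 1.16, 1.32 and 1.10 (adjusted p = 0.172, 0.113 and 0.16). Those sets differ from the malathion mice in vehicle, route and days of dosing a week. The other 3 feed chemicals of run A share set FCO2: Sqle stood at 1.66 ± 0.46 with 4-nitroanthranilic acid, 1.51 ± 0.44 with 2,2-bis(bromomethyl)-1,3-propanediol and 0.84 ± 0.46 with diazinon. None passed (adjusted p = 0.212, 0.76 and 0.998).

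Diazinon, also an organophosphate, was fed at 200 ppm and malathion at 14800 ppm, so their values are given side by side only. Sqle read 10.02, 9.62, 9.03 and 9.65 on the 4 diazinon arrays and Cyp51 10.81, 10.78, 10.25 and 10.48. The lowest diazinon mouse lay within the control range in both genes, the other 3 lay above it, and all 4 lay below the lowest malathion array. No member passed with diazinon.

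**Figure D3:**
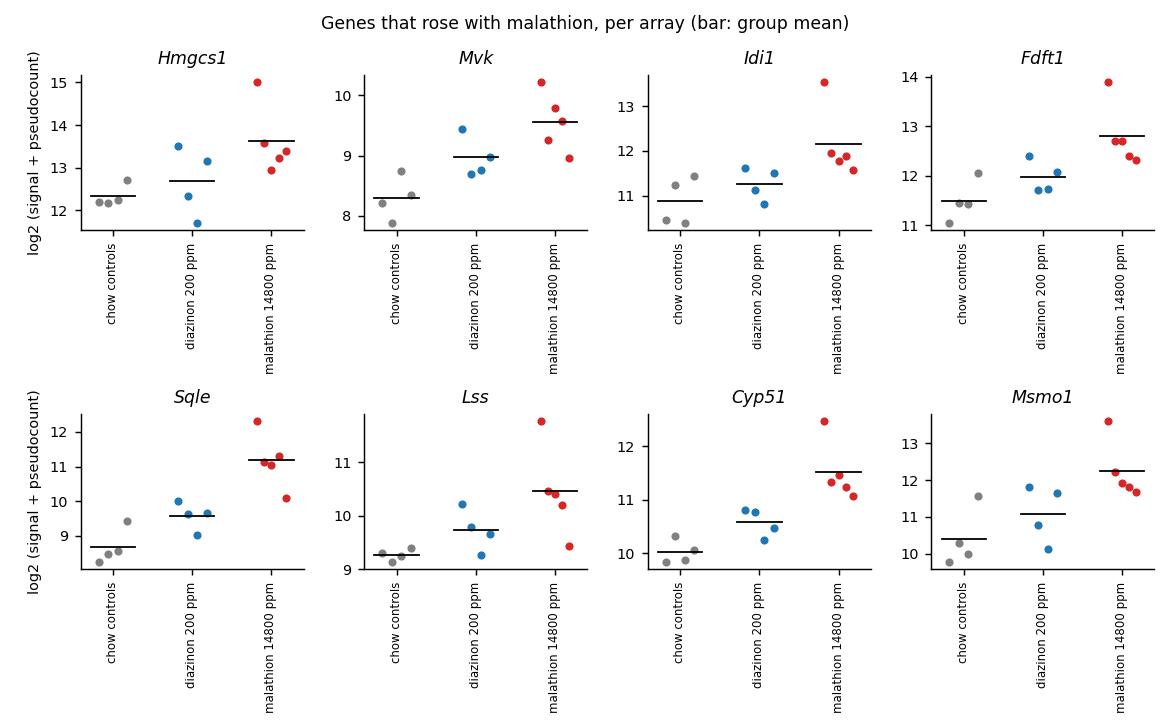
Log2 signal of the 8 genes that rose with malathion, for each array of the chow controls (4 mice), diazinon 200 ppm (4 mice) and malathion 14800 ppm (5 mice), with group means as bars. The 5 malathion points lie above the controls in each panel, and 1 malathion mouse is the highest throughout.

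Some genes of bile acid synthesis and its control fell with malathion. In a companion list of esterification, export and bile acid genes, 4 of 12 measured members fell and none rose, where 2.01% of all genes fell (median of the list -0.45, of all genes -0.03). These were Cyp7a1, the rate-limiting enzyme of bile acid synthesis (-2.64 ± 0.80, adjusted p = 0.0423, limma), Cyp8b1 (-1.73 ± 0.41), Cyp7b1 (-1.39 ± 0.33) and Nr1h4, the bile acid receptor FXR (-0.78 ± 0.19). Of 16 further SREBP target genes none rose and Lpin1 (-2.22 ± 0.56) and Aacs (-1.66 ± 0.46) fell, 2 of 16 beside the same 2.01% of all genes. Lpin1 makes diacylglycerol and Aacs activates acetoacetate for lipid synthesis. Among 11 genes of SREBP processing and sterol-regulated degradation, Paqr3, a Golgi anchor of SCAP and SREBP, fell by 1.25 ± 0.26 and Vcp, the segregase of the degradation route, rose by 0.62 ± 0.12. The summed signal of 8 pancreatic markers, which can come from adjacent tissue, was lower with malathion (1640 to 2167) than in the controls (4197 to 4833). The list did not move 1 way: Cela1 fell by 1.57 ± 0.34 and Pnliprp1 rose by 3.04 ± 0.45. Stab2, an endothelial marker, fell by 0.77 ± 0.16. The part of these markers in the result was not tested.

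Inhaled methylene chloride, a solvent, raised enzymes of the pathway as the dose went up. No member passed at 100 ppm, 1 rose and 1 fell at 500 ppm, 3 rose at 2000 ppm, 5 rose at 3000 ppm, and 6 rose and 1 fell at 4000 ppm. All genes higher made up 0.434% at 500 ppm, 0.396% at 2000 ppm, 1.51% at 3000 ppm and 1.18% at 4000 ppm, and those lower 0.291% at 500 ppm and 1.74% at 4000 ppm. A trend is the fitted log2 change from the first to the last of equally spaced steps. From air to 4000 ppm 7 members had a rising trend, where 1.43% of all genes did. The median trend of the members was 0.36 and that of all genes 0.01.

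Fdps rose at each of the 3 highest doses. It read 12.78, 12.78, 12.50, 11.48 and 11.98 in air, 13.13, 12.78, 13.16 and 12.87 at 100 ppm and 13.10, 13.19, 13.10 and 13.68 at 500 ppm. At 2000 ppm the arrays read 13.32, 13.12, 13.60 and 13.76, at 3000 ppm 13.61, 13.40, 13.70 and 13.49 and at 4000 ppm 14.02, 12.74, 13.75 and 13.34. The arrays at 500, 2000 and 3000 ppm lay above all air arrays, and 1 array at 4000 ppm did not. The differences that passed were 1.15 ± 0.27, 1.25 ± 0.27 and 1.16 ± 0.27 (adjusted p = 0.0107, 0.00159 and 0.00308, limma), and the trend was 1.10 ± 0.23 (adjusted p = 0.000513). The other probe set of Fdps, with a mean log2 of 4.72 over all arrays, read lower where the brighter one read higher. Fdft1, the next enzyme, read 11.84, 11.94, 11.74, 11.30 and 11.37 in air, 11.99, 11.41, 11.83 and 11.52 at 100 ppm, 11.83, 12.15, 11.84 and 12.29 at 500 ppm and 12.18, 12.31, 12.38 and 12.06 at 2000 ppm. It read 12.50, 12.33, 12.46 and 12.09 at 3000 ppm and 12.86, 12.45, 12.44 and 12.07 at 4000 ppm. Its arrays at the 3 highest doses lay above all air arrays, with differences of 0.71 ± 0.18 and 0.82 ± 0.18 at the last 2 (adjusted p = 0.00741 and 0.00108) and a trend of 0.89 ± 0.15 (adjusted p = 7.89e-06).

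Sqle read 8.79, 9.30, 8.51, 8.53 and 8.08 in air, 10.08, 9.18, 9.44 and 9.64 at 2000 ppm, 9.29, 10.05, 9.85 and 9.56 at 3000 ppm and 10.59, 9.33, 10.23 and 9.43 at 4000 ppm. It passed at 3000 ppm (1.04 ± 0.33, adjusted p = 0.0433) and 4000 ppm (1.25 ± 0.33, adjusted p = 0.0105, limma), and its trend was 1.18 ± 0.28 (adjusted p = 0.00261). At 4000 ppm all 4 arrays lay above the air arrays, and at 3000 ppm the lowest did not. Cyp51 read 10.02, 10.26, 9.80, 9.73 and 9.73 in air, 10.78, 10.34, 10.58 and 10.60 at 2000 ppm, 10.19, 10.74, 10.81 and 10.38 at 3000 ppm and 10.92, 10.38, 10.84 and 10.49 at 4000 ppm. Its differences were 0.66 ± 0.19, 0.63 ± 0.19 and 0.75 ± 0.19 (adjusted p = 0.0441, 0.0292 and 0.00599), its trend was 0.71 ± 0.16 (adjusted p = 0.00108), and of these 3 doses only 3000 ppm held an array within the air range. Lss read 9.75, 9.94, 9.74, 9.18 and 9.44 in air and 10.84, 10.26, 10.46 and 10.04 at 4000 ppm, without overlap (0.79 ± 0.22, adjusted p = 0.0187; trend 0.81 ± 0.19, adjusted p = 0.00184). Msmo1 read 10.97, 11.36, 10.49, 10.61 and 10.24 in air and 12.43, 11.60, 11.97 and 11.68 at 4000 ppm, also without overlap (1.19 ± 0.26, adjusted p = 0.000819; trend 1.10 ± 0.22, adjusted p = 0.000162).

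Mvd rose in the middle of the series. It read 8.51, 9.03, 7.95, 7.73 and 8.19 in air, 8.77, 9.68, 9.02 and 9.28 at 500 ppm, 9.58, 9.36, 9.37 and 9.13 at 2000 ppm, 9.24, 9.58, 9.51 and 9.13 at 3000 ppm and 9.77, 8.54, 8.92 and 8.46 at 4000 ppm. Arrays at 2000 and 3000 ppm lay above all air arrays, while at 500 and 4000 ppm the groups overlapped. The differences that passed were 0.91 ± 0.25, 1.08 ± 0.25 and 1.08 ± 0.25 (adjusted p = 0.0475, 0.00954 and 0.00366, limma), and its trend was 0.70 ± 0.22 (adjusted p = 0.0292). Insig2, which retains SCAP in the endoplasmic reticulum, went the other way. It read 14.13, 13.99, 14.01, 13.92 and 14.20 in air, 13.54, 13.60, 13.26 and 13.36 at 500 ppm and 12.98, 13.54, 13.66 and 12.89 at 4000 ppm. All dosed arrays lay below all air arrays, down to the 13.51, 13.59, 13.75 and 13.52 at 100 ppm. It fell by 0.61 ± 0.13 at 500 ppm (adjusted p = 0.00925) and by 0.79 ± 0.13 at 4000 ppm (adjusted p = 1.16e-05). Neither fall passed against air set ACO3 or ACO5, and a second Insig2 probe set read 0.08 higher at 500 ppm.

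The methylene chloride counts depend on the air set ACO4, which held the lowest Sqle, Cyp51 and Msmo1 means of the 3 air sets. With set ACO3 in its place 0, 0, 1 and 1 members were higher at 500, 2000, 3000 and 4000 ppm, and with set ACO5 0, 0, 1 and 5. All genes were not counted for these sets. No member was lower at any of these doses against either set, so the rise of Mvd at 500 ppm and the falls of Insig2 at 500 and 4000 ppm passed against ACO4 alone. The dosed groups alone gave a rising trend in 2 members, Fdft1 (0.74 ± 0.17 from 100 to 4000 ppm, adjusted p = 0.00214) and Msmo1 (0.85 ± 0.24, adjusted p = 0.0208), where 0.781% of all genes rose. Without single arrays the count at 500 ppm ran from 0 (without ACO4 replicate 5 or treated replicate 3 or 4) to 2, at 2000 ppm from 0 (without ACO4 replicate 4) to 5 (without ACO4 replicate 2), at 3000 ppm from 3 to 7, and at 4000 ppm from 5 to 7; at 3000 ppm it was 3 without ACO4 replicate 5 or treated replicate 3. The trend count ran from 6 to 9. The summed signal of 6 endothelial markers was 7337 to 8526 at 2000 ppm, 6744 to 7280 at 3000 ppm and 6342 to 7594 at 4000 ppm, below the 8779 to 10037 of the air mice. That of 6 macrophage markers was 11582 to 13069 at 2000 ppm and 10491 to 12940 at 3000 ppm, below the 14615 to 15806 of air. Pancreas markers at 4000 ppm (3328 to 5027 against 5618 to 7249) and 6 stellate and fibroblast markers at 500 ppm (5046 to 6737 against 6740 to 9350) were below air too. Their part in the result was not tested. RNA integrity numbers were 9.1 to 9.3 at 3000 ppm and 8.9 to 9.1 in air. Of the companion genes, Acly, which makes acetyl-CoA from citrate, rose at 4000 ppm (0.96 ± 0.27), Cyp7b1 fell there (-0.74 ± 0.23), and Abcb11, the bile salt export pump, fell at 3000 ppm (-0.88 ± 0.26), where 1.53% of all genes fell.

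**Figure D4:**
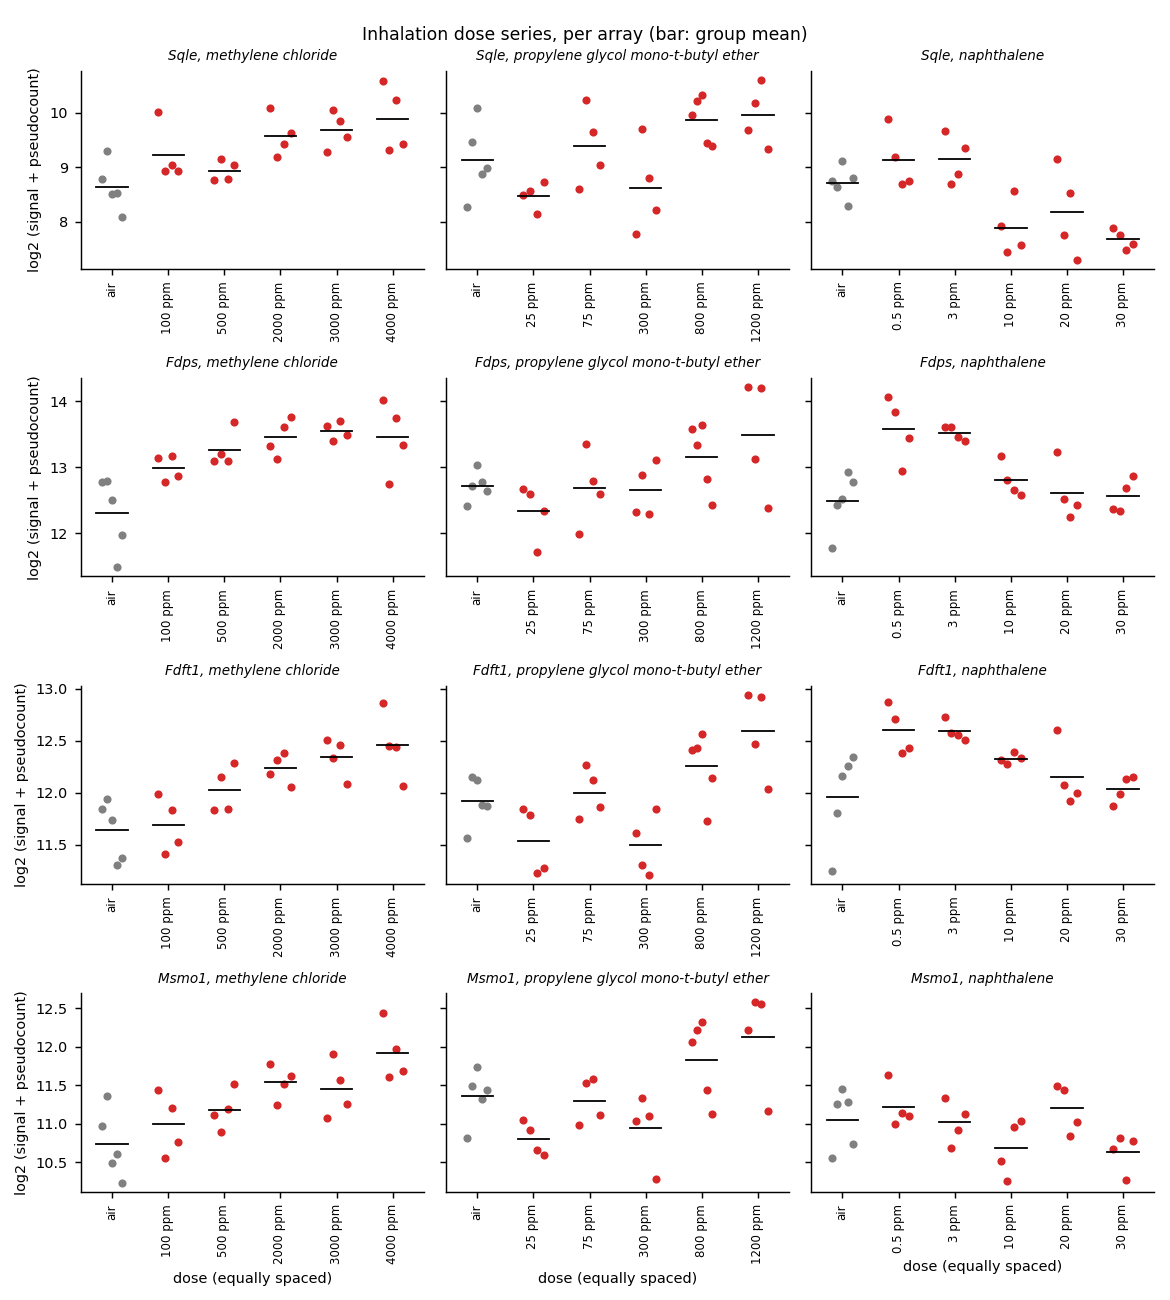
Log2 signal of Sqle, Fdps, Fdft1 and Msmo1 (rows) on each array of the methylene chloride, propylene glycol mono-t-butyl ether and naphthalene series (columns), with group means as bars; doses are equally spaced and the first position of each panel is the matched air set. Methylene chloride means climb from air to the top doses, those of the ether rise at 800 and 1200 ppm, and with naphthalene Fdps and Fdft1 are highest at 0.5 and 3 ppm.

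With propylene glycol mono-t-butyl ether, a glycol ether solvent, no member passed at any single dose, but 6 members had a rising trend over the series, where 0.203% of all genes did. The median trend was 0.35 over the members and 0.02 over all genes, and 26 of the 27 members had a positive value. RNA integrity numbers also rose along the series, from 8.7 to 8.8 in air to 9.1 to 9.2 at 1200 ppm. Between these they were 8.8 to 8.9 at 25 ppm, 8.6 to 9.1 at 75 ppm and 8.9 to 9.1 at 300 and 800 ppm. Their part in the trends was not tested. Fdft1 read 11.57, 12.15, 12.12, 11.88 and 11.87 in air, 11.85, 11.79, 11.23 and 11.28 at 25 ppm, 11.74, 12.26, 12.13 and 11.87 at 75 ppm, 11.62, 11.31, 11.21 and 11.85 at 300 ppm, 12.41, 12.43, 12.57, 11.73 and 12.14 at 800 ppm and 12.94, 12.47, 12.92 and 12.03 at 1200 ppm. Its trend was 0.72 ± 0.15 (adjusted p = 0.00518, limma), and the lowest arrays at 800 and 1200 ppm lay within the air range. Msmo1 read 10.81, 11.49, 11.74, 11.33 and 11.44 in air, 11.04, 10.92, 10.65 and 10.60 at 25 ppm, 10.98, 11.53, 11.58 and 11.11 at 75 ppm, 11.04, 11.34, 11.10 and 10.28 at 300 ppm, 12.07, 12.22, 12.33, 11.43 and 11.12 at 800 ppm and 12.22, 12.57, 12.55 and 11.16 at 1200 ppm. The trend was 0.94 ± 0.22 (adjusted p = 0.0145), and again single arrays of the 2 top doses lay among the air arrays.

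The ether's other 4 trends lay after squalene or just before it. Tm7sf2 read 13.22, 13.37, 13.49, 13.13 and 13.01 in air, 13.98, 13.65, 13.72, 13.54 and 13.43 at 800 ppm and 14.18, 13.52, 14.10 and 13.85 at 1200 ppm (trend 0.69 ± 0.15, adjusted p = 0.00656, limma). Nsdhl read 11.40, 11.56, 11.73, 11.24 and 11.22 in air, 11.86, 11.93, 12.21, 11.48 and 11.94 at 800 ppm and 12.08, 12.09, 12.34 and 11.51 at 1200 ppm (trend 0.63 ± 0.14, adjusted p = 0.0131). Cyp51 read 9.71, 10.56, 10.74, 10.29 and 10.26 in air, 10.71, 11.06, 10.92, 10.41 and 10.50 at 800 ppm and 10.65, 11.11, 11.16 and 10.24 at 1200 ppm (trend 0.61 ± 0.16, adjusted p = 0.0495). At 1200 ppm only Tm7sf2 of these 3 was above all air arrays. Fdps read 12.41, 12.72, 13.03, 12.78 and 12.63 in air, 13.57, 13.34, 13.64, 12.82 and 12.43 at 800 ppm and 14.21, 13.12, 14.20 and 12.39 at 1200 ppm, where its 4 mice spanned nearly the whole range (trend 0.90 ± 0.23, adjusted p = 0.0495). Over the dosed groups alone 8 members rose, where 0.192% of all genes did, Sqle among them by 1.37 ± 0.31 (adjusted p = 0.0115). The count was 0 without 1200 ppm replicate 1 and 11 without 1200 ppm replicate 4, which was the lowest array of its group in each of the 6 genes but Tm7sf2. Against air sets ACO4 and ACO5, 1200 ppm raised 7 and 4 members, without a count of all genes to set beside them.

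Naphthalene, an aromatic hydrocarbon, gave higher levels of some members at its 2 lowest doses, and Sqle had a falling trend over the series. At 0.5 ppm 3 members rose (0.863% of all genes did), at 3 ppm 3 rose (1.22% of all genes), and at 10, 20 and 30 ppm none passed. Fdps read 11.78, 12.42, 12.52, 12.93 and 12.77 in air, 14.07, 13.84, 12.94 and 13.43 at 0.5 ppm, 13.61, 13.61, 13.45 and 13.39 at 3 ppm, 13.16, 12.81, 12.65 and 12.57 at 10 ppm, 13.23, 12.52, 12.25 and 12.43 at 20 ppm and 12.37, 12.33, 12.69 and 12.87 at 30 ppm. Its differences at 0.5 and 3 ppm were 1.08 ± 0.27 and 1.03 ± 0.27 (adjusted p = 0.00899 and 0.0101, limma), without overlap with the air mice. Fdft1 read 11.25, 11.80, 12.16, 12.26 and 12.35 in air, 12.87, 12.71, 12.38 and 12.43 at 0.5 ppm, 12.72, 12.58, 12.56 and 12.51 at 3 ppm, 12.31, 12.27, 12.39 and 12.33 at 10 ppm, 12.60, 12.07, 11.92 and 12.00 at 20 ppm and 11.87, 11.99, 12.13 and 12.15 at 30 ppm. It passed at 0.5 ppm (0.64 ± 0.18, adjusted p = 0.021) and 3 ppm (0.63 ± 0.18, adjusted p = 0.0162), again without overlap. Dhcr7 at 0.5 ppm read 12.70, 12.61, 11.92 and 12.06 against 10.56, 11.24, 11.17, 11.67 and 12.23 in air, with overlap (0.95 ± 0.28, adjusted p = 0.0308). Tm7sf2 at 3 ppm read 13.72, 13.73, 13.70 and 13.93 against 12.75, 13.17, 13.11, 13.30 and 13.57, without overlap (0.59 ± 0.18, adjusted p = 0.0228).

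Over the 5 naphthalene doses without the air mice 8 members fell from 0.5 to 30 ppm, where 1.87% of all genes did. These were Sqle (-1.55 ± 0.31, adjusted p = 0.0004, limma), Ebp (-0.59 ± 0.12), Fdps (-1.17 ± 0.26), Nr1h3 (-0.63 ± 0.14), Tm7sf2 (-0.64 ± 0.17), Dhcr7 (adjusted p = 0.00718), Fdft1 (-0.63 ± 0.17) and Mvd (-0.80 ± 0.24). With the air mice as the first step only Sqle kept a falling trend (-1.33 ± 0.28, adjusted p = 0.0185), where 0.066% of all genes fell. Sqle read 8.75, 8.64, 9.11, 8.30 and 8.80 in air, 9.90, 9.20, 8.70 and 8.75 at 0.5 ppm, 9.67, 8.69, 8.89 and 9.36 at 3 ppm, 7.93, 7.45, 8.57 and 7.58 at 10 ppm, 9.15, 7.75, 8.52 and 7.30 at 20 ppm and 7.89, 7.76, 7.48 and 7.60 at 30 ppm. All 4 mice at 30 ppm lay below all air mice, though the difference at that dose alone did not pass (-1.04 ± 0.33, adjusted p = 0.755). The trend did not pass without 0.5 ppm replicate 1, 20 ppm replicate 4, or 30 ppm replicate 3 or 4. RNA integrity numbers also differed along the doses, at 9.2 for 0.5 and 3 ppm and 9.1 to 9.3 for 10 ppm. For 20 and 30 ppm they were 8.4 to 8.7 and 8.5 to 8.6. Their part in the falling trends was not tested.

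The counts at 0.5 and 3 ppm fell to 0 without ACO5 replicate 1, the lowest air mouse in Fdps, Fdft1, Dhcr7 and Tm7sf2; at 0.5 ppm also without treated replicate 2, and at 3 ppm the count was 7 without ACO5 replicate 5. Against air sets ACO3 and ACO4, 0.5 ppm raised 4 and 3 members and 3 ppm raised 5 and 4, with Fdps and Fdft1 in each. The share of all genes higher against those sets was not counted. RNA integrity numbers were 9.2 in both low dose groups and 8.5 to 8.9 in air. The summed hepatocyte signal was 351504 to 527620 at 0.5 ppm and 391168 to 431269 at 3 ppm, above the 270562 to 345363 of the air mice, and it was also above at 10 and 20 ppm, where no member passed. Its part in the result was not tested. Companion SREBP targets rose with 0.5 ppm in 3 of 16 genes, beside 0.863% of all genes. These were Fasn, the fatty acid synthase (1.20 ± 0.30), Acly (0.93 ± 0.27) and Tmem97, a sterol-regulated membrane protein (0.63 ± 0.15). Of the same 16 genes, Tmem97 (0.62 ± 0.15) and Fads2, a fatty acid desaturase (0.65 ± 0.18), rose at 3 ppm, beside 1.22% of all genes.

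In run C, with 3 mice a group, 1,5-naphthalenediamine raised 4 members (1.21% of all genes rose) and pentachloronitrobenzene raised 3 (0.225% of all genes). Both were compared with the same 3 chow mice, so their values are given side by side. Sqle read 10.01, 9.63 and 10.21 in the chow mice, 11.28, 11.08 and 11.38 with 1,5-naphthalenediamine and 12.14, 11.35 and 11.11 with pentachloronitrobenzene. Both treated groups lay above the controls (differences 1.29 ± 0.26 and 1.58 ± 0.26, adjusted p = 0.0163 and 0.0207, limma). Cyp51 read 10.64, 10.30 and 10.78, then 11.42, 11.44 and 11.30 and 12.20, 11.64 and 11.32, in the same order (differences 0.81 ± 0.21 and 1.15 ± 0.21, adjusted p = 0.0472 and 0.0319). Here too the treated groups lay apart from the controls. Pmvk, phosphomevalonate kinase, read 10.59, 10.04 and 10.22 and 11.36, 11.49 and 11.02 with 1,5-naphthalenediamine (1.01 ± 0.22, adjusted p = 0.0236). Dhcr7 read 11.32, 10.95 and 11.50 and 12.10, 12.45 and 12.06 (0.95 ± 0.22, adjusted p = 0.0319). Idi1 read 11.61, 11.59 and 11.77 and 13.35, 12.74 and 12.47 with pentachloronitrobenzene (1.19 ± 0.24, adjusted p = 0.0491). None of these 3 pairs of groups overlapped.

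Leaving out 1 of the 6 arrays lowered the count to between 0 and 2 for 1,5-naphthalenediamine (0 without chow replicate 2) and to between 0 and 3 for pentachloronitrobenzene (0 without its replicate 1 or chow replicate 1 or 2). One 1,5-naphthalenediamine array was deposited off the common scale and was multiplied by 5.91. With its values as deposited the count was 0. That array then stays on another scale than the other arrays, so this count does not measure how firm the calls are. With 1,5-naphthalenediamine the summed signals of 7 of the 8 cell type lists lay below the control range, among them hepatocytes (308735 to 340528 against 346481 to 348910) and pancreas (780 to 1529 against 3837 to 5364). With pentachloronitrobenzene adipose (77.8 to 103 against 178 to 730) and bile duct sums (399 to 460 against 478 to 703) lay below, and the Gapdh log2 ratio was apart (-0.40 to -0.38 against -0.33 to -0.22). The part of these lists in the results was not tested. With the Gapdh ratio as a covariate 3 members were changed with 1,5-naphthalenediamine and 5 with pentachloronitrobenzene. Of the companion SREBP targets, Rdh11, a retinol dehydrogenase, rose with 1,5-naphthalenediamine (0.76 ± 0.16), as did Gpam, which starts glycerolipid synthesis (0.67 ± 0.17). Rdh11 also rose with pentachloronitrobenzene (1.03 ± 0.16).

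N-(1-naphthyl)ethylenediamine dihydrochloride shares the naphthalene ring system and was fed at the same 2000 ppm in the same run, where 1,5-naphthalenediamine carries its amines on both rings and this compound carries an ethylenediamine chain on 1 ring, so 1 pair was compared directly. Insig2 was the only member that changed against the chow mice: it read 13.91, 13.92 and 13.59 in controls and 12.72, 12.68 and 12.98 with the compound, without overlap, and fell by 1.01 ± 0.17 (adjusted p = 0.0329, limma; 0.456% of all genes fell). RNA quality was apart in this group, with RNA integrity numbers of 7.7 to 8.1 against 8.8 to 9.1 in the chow mice and Gapdh log2 ratios of -0.06 to 0.16 against -0.33 to -0.22, and with that ratio as a covariate the fall did not pass. The hepatocyte sum lay above control (363989 to 409739 against 346481 to 348910), and pancreas (1720 to 3344 against 3837 to 5364), adipose (78.4 to 167 against 178 to 730) and bile duct sums (205 to 310 against 478 to 703) lay below. With 1,5-naphthalenediamine Insig2 read 13.80, 13.56 and 13.67. Tested directly, 3 members were higher with 1,5-naphthalenediamine, where 0.506% of all genes were: Sqle by 1.34 ± 0.26 (adjusted p = 0.0249), Insig2 by 0.89 ± 0.17 (adjusted p = 0.0258) and Pmvk by 0.99 ± 0.22 (adjusted p = 0.0497). Sqle read 9.81, 9.80 and 10.12 and Pmvk 10.82, 10.00 and 10.09 with N-(1-naphthyl)ethylenediamine, and no array of the pair overlapped in the 3 genes. Cyp51 (0.65 ± 0.21, 95% interval 0.20 to 1.11) and Dhcr7 (0.65 ± 0.22, 0.17 to 1.13) did not pass, nor did the other 22. Leaving out 1 array lowered the count of 3 to between 0 and 1; it was 0 without any 1 of the 1,5-naphthalenediamine arrays and without replicate 2 of the other compound. The fall of Insig2 was lost without replicate 1 or 2 of N-(1-naphthyl)ethylenediamine dihydrochloride, or chow replicate 1 or 2.

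There were 3 more groups with changed members. With 1,4-dichlorobenzene at 300 mg/kg 3 members rose (0.737% of all genes): Pmvk read 10.75, 10.98, 10.08, 10.94 and 10.87 in corn oil mice and 10.95, 11.71, 11.59 and 11.83 with the chemical (0.79 ± 0.18, adjusted p = 0.00591, limma). Insig1 read 11.79, 11.97, 10.92, 11.73 and 11.89 and 12.07, 11.91, 12.83 and 12.27 (0.61 ± 0.18, adjusted p = 0.0357). Fdps read 13.28, 13.20, 12.11, 13.20 and 13.33 and 13.32, 14.04, 14.12 and 14.15 (0.88 ± 0.27, adjusted p = 0.0493). All 3 pairs of groups overlapped, and the third control mouse was the lowest in each. Without it, or without treated replicate 4, the count was 0, and without treated replicate 1 it was 5. No member passed at 100, 400, 500 or 600 mg/kg or over the series. At 300 mg/kg 4 of the 16 companion SREBP targets rose: Rdh11 (1.02 ± 0.19), Me1, which supplies NADPH (0.80 ± 0.17), Tmem97 (0.75 ± 0.15) and Fads2 (0.62 ± 0.18). They were not confined to the dose at which members passed. Rdh11 also rose at 400, 500 and 600 mg/kg (0.72, 1.11 and 0.75). Me1 rose at 500 and 600 mg/kg too (1.15 and 1.01), and Tmem97 at 400 and 500 mg/kg (0.61 and 0.62).

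With 1,2,3-trichloropropane at 40 mg/kg Lss fell: it read 10.63, 10.47, 10.24, 10.31 and 10.89 in corn oil mice and 9.46, 9.75, 9.64 and 9.93 with the chemical, without overlap (fell by 0.81 ± 0.22, adjusted p = 0.0319, limma; 0.813% of all genes fell). Another Lss probe set read 0.23 higher there, and the call was lost without 1 of several single arrays (CCO6 replicates 1, 4 or 5, treated replicates 1 to 3), and without CCO6 replicate 2 the count was 2. With 2,3-benzofuran Tm7sf2 fell: it read 13.53, 13.38 and 13.42 in corn oil mice and 12.47, 12.96 and 12.93 with the chemical, without overlap (fell by 0.66 ± 0.15, adjusted p = 0.0247; 1.92% of all genes fell). It no longer passed without any 1 of the 3 corn oil mice or treated replicate 1. Summed signals of 6 of the 8 cell type lists lay below the control range with 2,3-benzofuran: hepatocyte (286535 to 296471 against 307485 to 336931), pancreas (1170 to 1556 against 3979 to 4765), endothelial (5783 to 7004 against 7563 to 9432), macrophage (10207 to 12754 against 14916 to 18848), bile duct (167 to 273 against 464 to 611) and stellate (8328 to 10444 against 11129 to 13736). Their part in the result was not tested. The median over the members was -0.27 with 2,3-benzofuran, against -0.12 over all genes.

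Of the SREBP control genes, Srebf2, which encodes SREBP2, ran from -0.52 to 0.48 over the 46 treated groups and passed in none, with 4 groups at an unadjusted p under 0.05 by limma. Scap ran from -0.27 to 0.67 and passed in none, and Insig1 ran from -0.48 to 0.68 and passed only with 1,4-dichlorobenzene at 300 mg/kg. Insig2 ran from -1.01 to 0.26. It fell in 3 groups and rose in none, and its median over the groups was -0.16. At the highest dose of each of the 26 chemicals, Srebf2 lay between -0.52 and 0.46, and none of the 26 passed. Insig1 lay between -0.27 and 0.68 at those doses and Abcg5 between -0.38 and 0.39, again with none past the rule. Sqle lay between -1.04 and 2.60 and Idi1 between -0.99 and 1.41. Sqle passed at the highest dose of 4 chemicals (malathion, pentachloronitrobenzene, 1,5-naphthalenediamine and methylene chloride) and Idi1 at that of 2 (malathion and pentachloronitrobenzene).

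Sterol carriers did not pass in any treated group. Abcg5 and Abcg8, which together form the biliary sterol exporter, ran from -0.38 to 0.39 and from -0.51 to 0.53. Stard4, a soluble sterol carrier that is an SREBP2 target, ran from -0.52 to 0.59, and Nr1h3 from -0.39 to 0.58. Npc1l1, the sterol uptake protein, ran from -0.80 to 1.34. Its signal was the dimmest of the members, with a mean log2 of 6.66 over all arrays, so its differences are the least certain. Of the enzymes, Lbr (-0.55 to 0.17), Nsdhl (-0.56 to 0.80), Hsd17b7 (-0.53 to 0.41), Ebp (-0.69 to 0.55) and Sc5d (-0.37 to 0.51) also passed in none of the 46 groups.

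Fdps and Cyp51 rose in the most groups, 6 each, from 3 and 4 chemicals. Fdft1 and Sqle rose in 5 each, Mvd in 3, and Idi1, Msmo1, Pmvk, Dhcr7 and Lss in 2. Hmgcs1 and Mvk rose in 1 group, malathion, Tm7sf2 in 1, naphthalene 3 ppm, and Insig1 in 1, 1,4-dichlorobenzene 300 mg/kg.

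Among the 59 control mice, each value was taken as its deviation from the mean of its control set, to see which members moved together in mice that were treated alike. Arrays of a set share their run and signal scale, so the correlations are descriptions. The highest were those of Lss (Pearson r = 0.79, Spearman rho = 0.80), Fdft1 (0.78 and 0.81), Fdps (0.77 and 0.75), Sqle (0.76 and 0.78) and Cyp51 (0.72 and 0.73), each with the mean of the other 17 enzymes. The median over the 18 enzymes was 0.54, while over all genes the median was -0.02 and 90% lay between -0.27 and 0.28. Lbr was the exception among the enzymes, at -0.24, and Sc5d (0.16) and Hsd17b7 (0.31) were low. Of the control genes, Insig1 followed the enzymes (0.54), Scap did so weakly (0.21), and Srebf2 (-0.06) and Insig2 (-0.09) did not. Abcg5 (-0.34) and Abcg8 (-0.38) went the other way. Within runs A, B, C and D, Insig1 gave 0.68, 0.41, -0.60 and 0.52, Srebf2 -0.23, 0.43, -0.92 and -0.18, Scap 0.28, 0.25, -0.25 and 0.17 and Insig2 -0.27, -0.28, 0.02 and 0.21, so that the sign of each of these 4 genes differed between runs, with 6 mice in run C. Abcg5 (-0.25, -0.73, -0.81 and -0.12) and Abcg8 (-0.39, -0.59, -0.75 and -0.26) were negative in all 4 runs. Of the enzymes, Sqle gave 0.87 in run A (16 mice), 0.72 in B (12 mice), 0.95 in C (6 mice) and 0.67 in D (25 mice), and Lss gave 0.81, 0.92, 0.77 and 0.78. Without the 2 mice farthest from the median of the enzyme mean, Sqle stood at 0.76 and Lss at 0.77. The order depended on the probe set. With the mean of all probe sets of a gene, Sqle stood at 0.71, Lss at 0.65, Fdft1 at 0.62, Cyp51 at 0.61 and Fdps at 0.59. Mvd (0.62) and Mvk (0.61) then lay above Fdps. Srebf2 turned to 0.18 and Insig2 stood at -0.27, while Insig1 (0.55), Scap (0.11), Abcg5 (-0.43) and Abcg8 (-0.41) kept their signs.

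**Figure D5:**
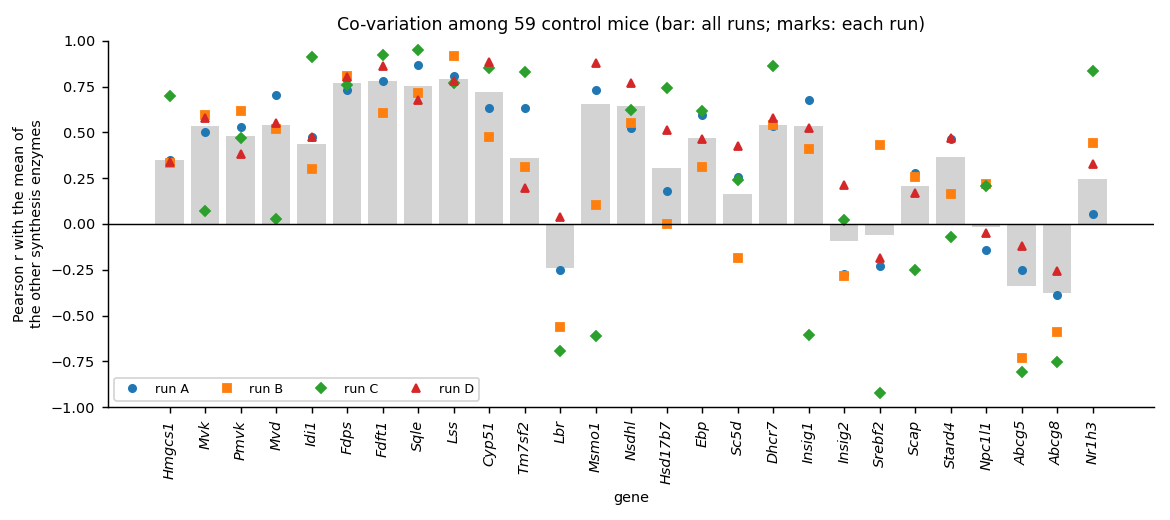
Pearson r of each gene with the mean of the other synthesis enzymes among 59 control mice (bars), and within runs A, B, C and D (marks), from deviations from each set's mean. Lss, Fdft1, Fdps, Sqle and Cyp51 are the tallest bars, and Lbr, Abcg5 and Abcg8 lie below 0.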

How the data were processed

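RNA from the livers was hybridised to Affymetrix Mouse430_2 arrays, and the authors deposited 1 intensity per probe set and array, made with GCOS 1.0 per the submitters' processing notes. The 2%-trimmed mean was 500 on 240 of 242 arrays. The other 2, 1 of vanadium pentoxide and 1 of 1,5-naphthalenediamine, were multiplied by 3.37 and 5.91 to reach it. Of 45101 probe sets, 34945 named 1 gene, and the brightest of each of 18193 genes was kept. Intensities were analysed as log2(intensity + 17.3), the pseudocount being a typical array's 20th percentile (median of all arrays). Runs were fitted apart with limma 3.58.1 in R 4.3.3, with 1 mean per group and, in run A, the run code as a block. The number of arrays, 3 to 5 a group, limits the precision. The labels do not say more of the replicates than that they are separate animals by number, and replicate numbers follow accession order.

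Named genes were each member that changed, with array values in comparisons of 3 or more changed members (up to 10 by adjusted p), Sqle, Idi1, Insig1, Srebf2 and Abcg5 at the highest doses, the other members by their range, and up to 4 changed genes of a companion list. The members and lists were chosen with earlier results of these data known. Alternatives were another pseudocount, quantile normalization, no rescaling, the mean of all probe sets, a filter on dim genes, the Gapdh ratio as a covariate, pooled controls, separate fits of each pair of groups, and leaving out each array. The fit was tested on simulated data.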

Additional observations from a re-analysis of the deposited data

Results flagged for a closer look

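In groups of 4 or 5 mice, 59 sets of values of changed members were tested for a mouse far from the others, and 10 were flagged. Chance flags about 1 in 20 independent sets. These sets share mice and belong to genes already called, so 10 of 59 cannot be weighed against that rate. Replicate 1 of malathion stood above its group in Cyp51 (12.47), Fdft1 (13.90), Idi1 (13.56) and Msmo1 (13.60). The Hmgcs1 value of replicate 4 of the chow set FCO2 was high (12.72). Replicate 3 of the corn oil set CCO5 was low in Fdps (12.11), Insig1 (10.92) and Pmvk (10.08), the 3 genes that rose with 1,4-dichlorobenzene at 300 mg/kg. Replicate 1 of that treated group was set apart in Fdps (13.32), and replicate 4 of naphthalene at 3 ppm in Tm7sf2 (13.93).

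The effects of 1,5-naphthalenediamine and N-(1-naphthyl)ethylenediamine dihydrochloride differed by limma's test of the difference in Sqle (1.34), Insig2 (0.89) and Pmvk (0.99), all higher with 1,5-naphthalenediamine on the log2 scale.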

How the results depend on the processing

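Counts of changed members are given per setting, beside the main counts in the report; the cause of a moved count was not tested. With each group fitted beside its own controls alone, 1 treated group, malathion, held changed members, with 6 calls, and the count was 0 for each other treated group with a changed member. With the rescaled arrays as deposited there were 7 groups and 21 calls; the count was 0 for 1,5-naphthalenediamine, 2,3-benzofuran, N-(1-naphthyl)ethylenediamine dihydrochloride, pentachloronitrobenzene, the difference between both naphthalene amines, 1,2,3-trichloropropane 40 mg/kg and methylene chloride 500 and 2000 ppm, it was 1 for 1,4-dichlorobenzene 300 mg/kg and naphthalene 0.5 and 3 ppm, and 3 for methylene chloride 3000 ppm. Cyp51 with 1,5-naphthalenediamine then turned to -0.027. With arrays left off the common scale, these lower counts do not measure how firm the calls are. With the mean of all probe sets there were 22 calls, with 1 for pentachloronitrobenzene, 1,4-dichlorobenzene 300 mg/kg, methylene chloride 500 and 2000 ppm and naphthalene 0.5 and 3 ppm, and 2 for methylene chloride 3000 and 4000 ppm and the ether's trend. Quantile normalization gave 2 for 1,5-naphthalenediamine and 1 for 1,4-dichlorobenzene 300 mg/kg and naphthalene 0.5 and 3 ppm. The Gapdh ratio as a covariate, chosen after seeing the data for the contrasts of controls and of the amines, gave 1 for corn oil against air in run B, 0 for N-(1-naphthyl)ethylenediamine dihydrochloride, for the difference of the amines and for 1,2,3-trichloropropane 40 mg/kg, 1 for 1,4-dichlorobenzene 300 mg/kg and 5 for pentachloronitrobenzene. Without dim genes the counts were 2 for 2,3-benzofuran, N-(1-naphthyl)ethylenediamine dihydrochloride and 1,2,3-trichloropropane 40 mg/kg, and 5 for pentachloronitrobenzene and methylene chloride 2000 ppm. Pooled controls gave 0 for 1,2,3-trichloropropane 40 mg/kg and methylene chloride 500 ppm and 6 for naphthalene 3 ppm. The dosed groups alone gave trends in 2 members with methylene chloride and 8 with naphthalene.

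Leaving out 1 array at a time gave 6 to 8 members for malathion, 12 to 15 and 8 to 11 for corn oil against air in runs B and D, 0 to 2 for 1,5-naphthalenediamine, 0 to 3 for pentachloronitrobenzene, 0 to 1 for N-(1-naphthyl)ethylenediamine dihydrochloride, 2,3-benzofuran and the difference of the amines, 0 to 2 for 1,2,3-trichloropropane 40 mg/kg and 0 to 5 for 1,4-dichlorobenzene 300 mg/kg. For methylene chloride it gave 0 to 2 at 500 ppm, 0 to 5 at 2000 ppm, 3 to 7 at 3000 ppm, 5 to 7 at 4000 ppm and 6 to 9 for the trend. For naphthalene it gave 0 to 3 at 0.5 ppm, 0 to 7 at 3 ppm and 0 to 1 for the trend, and for the ether's trend 0 to 11. Of 84 calls of a member over all comparisons, 40 held whichever array was left out and 13 held under each alternative run. No paired analysis was possible because the replicate numbers follow accession order and pair no animals.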
